A study of Mus musculus with 16 samples.

Results

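Tumor necrosis factor and 4 genes that act on or receive its signal were followed across 16 two-colour Agilent arrays of mouse macrophages grown from stem cells. The genes are Tnf, its receptors Tnfrsf1a and Tnfrsf1b, the sheddase Adam17, and Zfp36, which encodes tristetraprolin. Members were chosen by name: every probe whose accession on the array maps to one of the 5 genes was taken, which gave 7 probes, and all 7 passed the filter on dim probes. The array names 20659 genes in this way, and 12759 of them were bright enough to be tested.

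The red channel of each array held the sample and the green channel an untreated reference. The groups, with 4 biological replicates each (a to d), were macrophages with no treatment at 0 h, macrophages incubated for 8 h with 50 µM heme-albumin, for 8 h with 200 µM heme-albumin, and for 8 h with LPS at 10 ng/mL. Heme-albumin is heme carried on albumin, and LPS is the bacterial lipopolysaccharide that macrophages sense through Toll-like receptor 4. No group of 8 h without heme or LPS is among these samples, so time in culture and treatment cannot be told apart, and neither can albumin and heme. The series is titled as a test of heme as a trigger of inflammation, and each treatment is compared here with the untreated arrays and with the others.

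TNF is made by macrophages as a membrane-bound trimer. ADAM17, with its iRhom partners, cuts the trimer from the cell surface and cuts the TNF receptors as well. TNFR1 (Tnfrsf1a) is found on most cells and can signal to NF-kB or to cell death, whereas TNFR2 (Tnfrsf1b) is found mainly on immune and endothelial cells and has no death domain. Tristetraprolin binds AU-rich elements in the Tnf mRNA and speeds its decay, and its own gene is induced by the same stimuli as Tnf.

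Tnf rose after heme-albumin, while Zfp36 read below the untreated arrays by less than 2-fold, and the 250 bases before the start sites of both are shown for that reason. The sequences are RefSeq's (GRCm38.p6), 5′ to 3′ on the strand of the gene, in lower case. Capitals mark GGGCGG on either strand (the SP1 motif), and the longer EGR1 motif was not searched. Tnf lies on the minus strand at chr17:35202008-35202257 and Zfp36 on the minus strand at chr7:28379229-28379478.
Tnf: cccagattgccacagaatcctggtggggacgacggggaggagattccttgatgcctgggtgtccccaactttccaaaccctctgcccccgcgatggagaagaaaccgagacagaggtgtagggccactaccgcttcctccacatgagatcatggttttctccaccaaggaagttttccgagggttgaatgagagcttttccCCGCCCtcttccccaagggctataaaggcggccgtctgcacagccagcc
Zfp36: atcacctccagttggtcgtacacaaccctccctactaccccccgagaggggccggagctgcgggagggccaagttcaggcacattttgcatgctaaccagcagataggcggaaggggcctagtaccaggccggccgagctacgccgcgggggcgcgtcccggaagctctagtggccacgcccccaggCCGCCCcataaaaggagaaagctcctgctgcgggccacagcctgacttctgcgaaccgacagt

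All 5 genes had a window among the 32851 promoter windows, which also take in the 50 bases after the start. GGGCGG stood once each in the windows of Tnf, Zfp36 and Adam17, at 2 places in that of Tnfrsf1b, and in none for Tnfrsf1a. It occurs in 35.7% of all windows. In Tnf it lay 49 to 44 bases before the start and in Zfp36 63 to 58 bases before it. The NF-kappa-B consensus, the AP-1 motif TGANTCA, the cyclic AMP response element TGACGTCA and the NRF2 element TGACNNNGC had no match in any of the 5 windows. Over all windows they occur in 8.46%, 7.81%, 1.79% and 12.4%. No match says only that these letters are not in these windows. Both strands were searched, and no binding was measured.

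The files give 1 ratio per probe: log2 of the sample's red signal over the green signal of the untreated reference. A gene was called where limma's adjusted p (Benjamini-Hochberg over all 12759 genes) was under 0.05 and the change was at least 2-fold. In red, 49.94% to 59.42% of the probes on an array passed the scanner software's background test. Saturation was not reached on any array, and all 7 probes of the 5 genes were well above background in both channels on all 16 arrays. The software's own quality check was out of range on 8 arrays, 3 of them untreated, 1 at 50 µM, 2 at 200 µM and 2 after LPS. All 9 macrophage markers measured were well above background on every array, while the T cell markers Cd3g and Cd8a and the embryonic stem cell markers Pou5f1, Sox2 and Zfp42 were so on none. On all untreated arrays 4 of 6 neutrophil markers, 3 of 8 T and NK cell markers and 2 of 6 embryonic stem cell markers were well above background. So was 1 marker each of the dendritic cell, B cell, mast cell and fibroblast lists. Of the T and NK cell markers 1 rose and 1 fell after LPS, and their summed red signal, in units of the array's 75th percentile, was between 0.496 and 0.611 on the untreated arrays and between 1.09 and 2.17 after LPS. For the 9 macrophage markers the same sum was 109.9 to 219.6 and 204.4 to 442.4, with 4 called higher. For 6 neutrophil markers it was 4.65 to 7.19 and 5.31 to 9.72. For 6 dendritic cell markers it was 3.17 to 17.15 and 10.67 to 18.72. After LPS 2 neutrophil markers and 1 dendritic cell marker rose, the sum of 6 fibroblast markers was 0.240 to 0.321 against 0.0363 to 0.0708, and that of 5 B cell markers 0.152 to 0.238 against 0.515 to 1.04. At 200 µM 2 macrophage markers and 1 T and NK cell marker fell, and none was called at 50 µM. The part of these in the results was not tested. In bulk RNA, fewer cells of a type and less RNA per cell cannot be told apart. Each of the 4 slides held 1 array of every group at a fixed position, so position and group cannot be told apart. Replicates a and b were scanned on one day, c and d on another.

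Tnf, the ligand, rose in every treatment and in the order 50 µM heme-albumin, 200 µM heme-albumin, LPS. Its log2 ratio on the untreated arrays a to d was 0.00046, -0.088, 0.090 and 0.081. At 50 µM it was 0.70, 0.94, 1.38 and 1.34. At 200 µM it was 1.90, 2.03, 2.39 and 2.20. After LPS it was 4.08, 4.14, 4.23 and 4.25. No array of any group overlapped another group, and the means stood at 0.021 ± 0.083, 1.09 ± 0.33, 2.13 ± 0.21 and 4.18 ± 0.079 (SD, n = 4 each).

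The change of Tnf against the untreated arrays was 4.16 ± 0.14 (SE) after LPS, a 17.8-fold rise (95% interval 14.5 to 21.9; limma adjusted p = 9.4e-13). The red channel alone gave 123-fold, outside this interval. At 200 µM heme-albumin it was 2.11 ± 0.14, or 4.32-fold (3.53 to 5.28; limma adjusted p = 6.1e-08). At 50 µM it was 1.07 ± 0.14, or 2.10-fold (1.71 to 2.57; limma adjusted p = 0.00034). Among the 12759 genes this change was the 167th highest after LPS, the 52nd at 200 µM and the 36th at 50 µM.

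The doses and stimuli also differed from one another for Tnf. From 50 µM to 200 µM it rose by 1.04 ± 0.14 (2.06-fold; limma adjusted p = 0.00021). It was lower at 200 µM than after LPS by 4.13-fold (limma adjusted p = 2.9e-09) and lower at 50 µM than after LPS by 8.5-fold (limma adjusted p = 2.6e-11). These differences of -2.05 and -3.09 were -4.54 and -5.77 in the red channel alone, and -2.92 and -3.38 with normexp background correction and loess. The steps from untreated to 50 µM and from 50 µM to 200 µM lie near the 2-fold limit. The first was not called without heme-albumin 50 µM replicate c (0.97) or d (0.99). The second was not called without 50 µM replicate a (0.91) or b (0.99) or 200 µM replicate c (0.95). The limma adjusted p was at most 0.0016 in these 5 fits, so that the size alone missed the rule. With normexp and loess the second step was 0.46 and did not pass the p either (limma adjusted p = 0.30).

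Tnf was also fitted within each scan day, and the difference between days was not tested. At 50 µM, within the first day (a and b) the change against untreated was 0.86 and within the second (c and d) 1.27, with limma adjusted p = 0.011 and 0.0020. At 200 µM the same values were 2.01 and 2.21, and after LPS 4.16 on both days. Tnf is printed as 10 spots on each array, of which 8 to 10 were free of outlier flags. The SD of those spots was between 0.026 and 0.093 on the log2 scale.

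**Figure D1:**
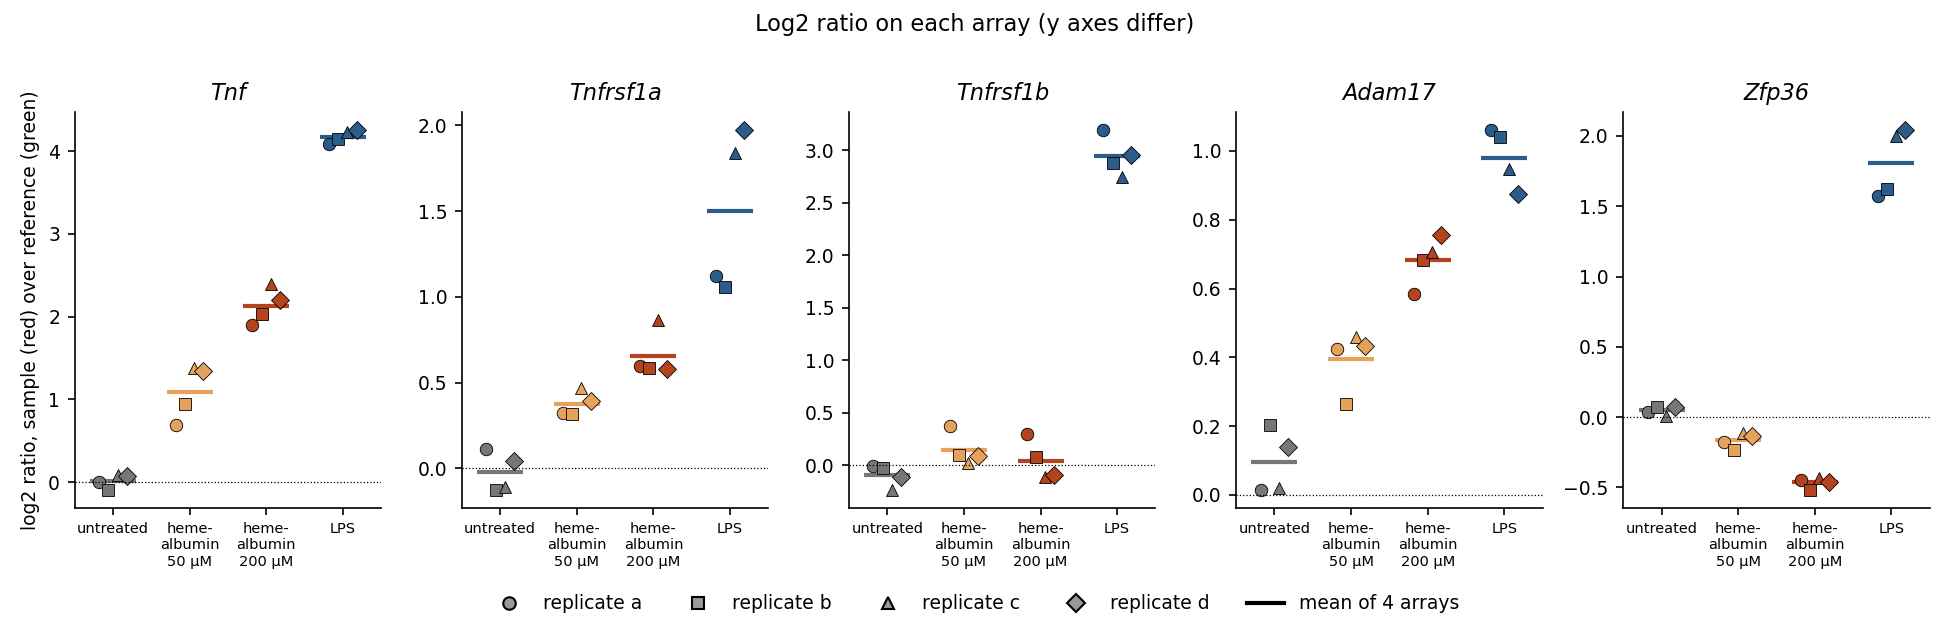
Log2 ratio of sample over untreated reference (y axis, own scale in each panel) for the 5 genes on the 16 arrays, by group on the x axis; symbols are replicates a to d and lines are means of 4 arrays. Tnf climbs from 0.021 on untreated arrays to 1.09, 2.13 and 4.18 with no overlap, whereas Zfp36 lies below the untreated arrays at both heme-albumin doses and above them after LPS.

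The green channel, labelled as untreated RNA on every array, was not the same for Tnf on all of them. Whether the same reference RNA was used throughout, or red signal entered the green channel, was not tested. On the untreated arrays its processed green signal was between 90.81 and 164.6, at 50 µM between 112.9 and 231.9, at 200 µM between 148.2 and 224.7, and on the LPS arrays between 1582 and 2059. The LPS arrays were brighter as a whole, so each channel was set against its own 75th percentile on that array. On that scale the green signal of Tnf was still 2.78 higher (log2) on the LPS arrays than on the untreated ones, 6.88-fold, and the groups did not overlap. The red signal on that scale was 6.94 higher, or 123-fold, against 17.8-fold in the ratio. At 200 µM the red signal was 5.28-fold higher and at 50 µM 2.25-fold, near the 4.32-fold and 2.10-fold of the ratio.

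Among all tested genes on the LPS arrays, the green channel stood higher where the red channel did. The median green difference was 0.050 for the 8761 genes whose red signal was within 1 of the untreated arrays, and 1.16 for the 150 genes whose red signal was higher by over 5. The part of this in the size of the Tnf ratio was not tested. The direction and the call of Tnf after LPS were the same in the red channel alone (limma adjusted p = 1.2e-13). Zfp36 had the same pattern at a smaller size: its green signal was 0.96 higher and its red signal 2.72 higher on the LPS arrays, against 1.76 in the ratio. For the brightest probe of each of the other 3 genes the green signals of the LPS and untreated arrays overlapped, and the difference in their means was widest for Tnfrsf1b, at -0.32.

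**Figure D2:**
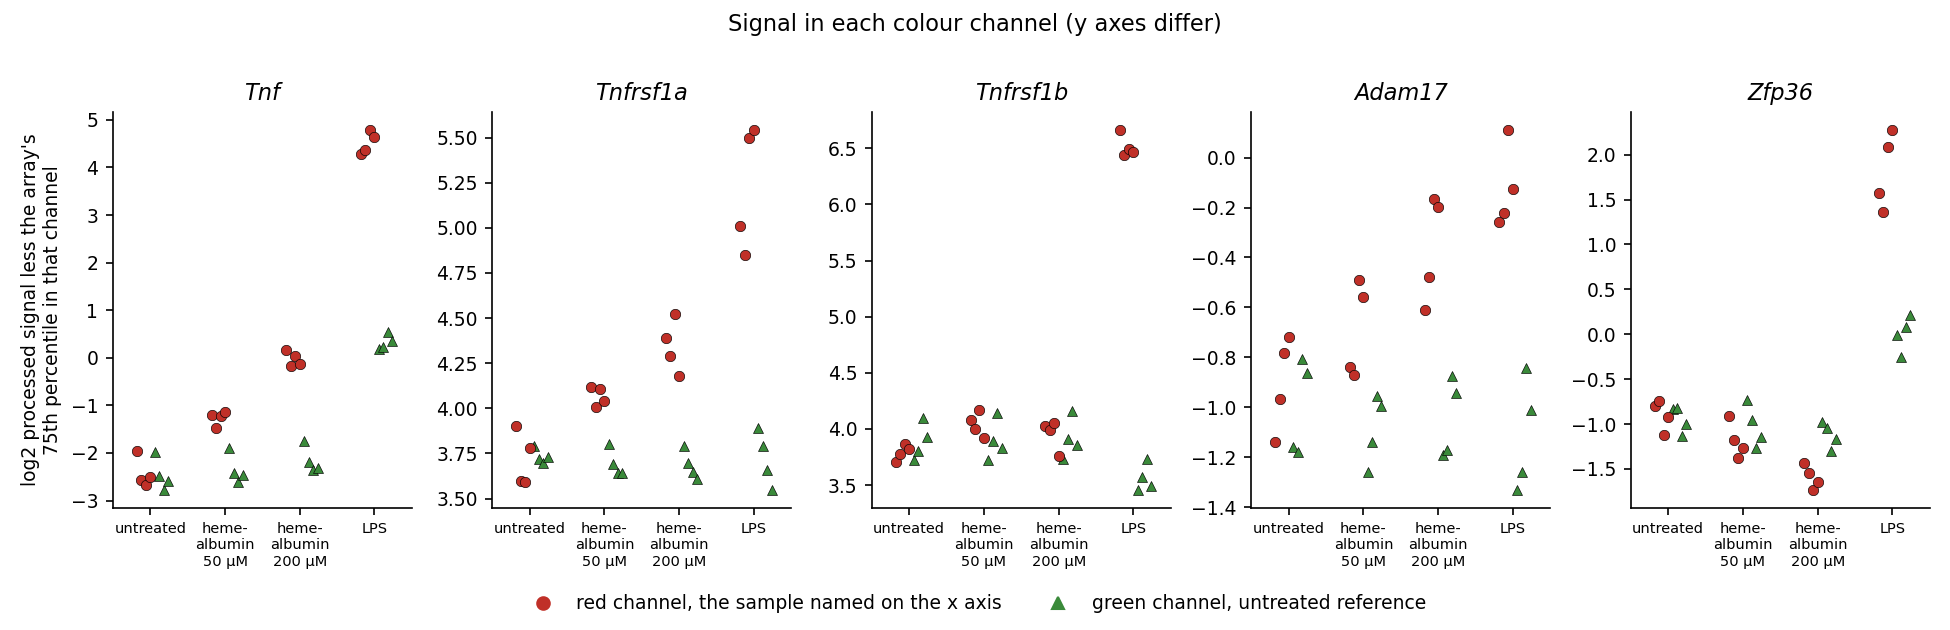
Log2 processed signal less the array's 75th percentile (y axis, own scale in each panel) in red (circles, the sample) and green (triangles, the untreated reference) for each gene, by group on the x axis. The green triangles of Tnf sit 2.78 higher on the LPS arrays than on the untreated arrays, and those of Zfp36 0.96 higher.

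Of the 5 genes, 4 rose after LPS and none fell. Of all tested genes 30.7% were called there, 14% higher and 16.7% lower. At 200 µM heme-albumin 1 of the 5 was called, against 3.03% of all genes, and at 50 µM 1 of the 5, against 0.368%. These shares count both directions, and 2.05% and 0.29% of all genes were called higher. The called gene was Tnf at both doses and also between the doses (1 of 5, against 0.831% either way). Against LPS, 3 of the 5 were lower at 200 µM (13.6% of all genes lower, 30.3% either way). At 50 µM 4 were lower (13.9% of all genes lower, 30.6% either way). By the adjusted p alone, without the 2-fold rule, 5 of the 5 genes passed after LPS (78.8% of all genes), 4 at 200 µM (22.8%) and 2 at 50 µM (3.52%). Arrays of the treated and untreated groups did not overlap for 5 of 5 genes after LPS (72.3% of all genes), 4 at 200 µM (35.7%) and 5 at 50 µM (19.2%). The median change of the 5 was 1.76, 0.59 and 0.30 in these 3 comparisons, beside -0.089, -0.022 and -0.012 over all genes.

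**Figure D3:**
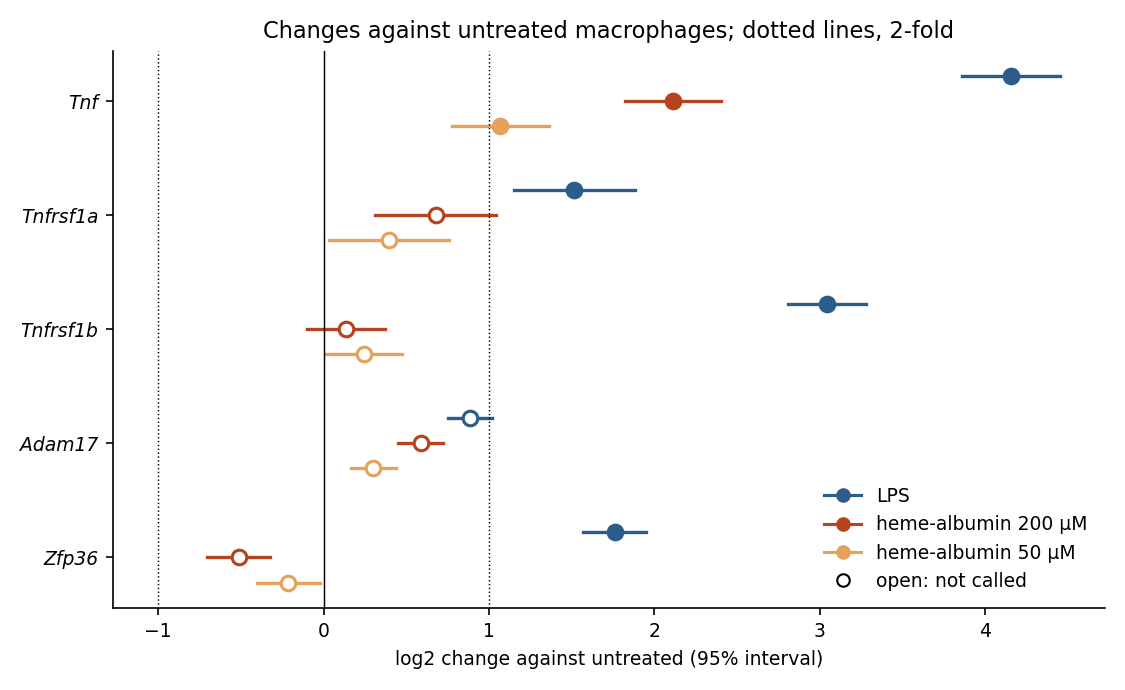
Log2 change against the untreated arrays (x axis) with its 95% interval for the 5 genes after LPS, 200 µM and 50 µM heme-albumin; filled circles were called and open ones were not. Tnf is the only gene filled in all 3 comparisons, and Zfp36 lies at 1.76 after LPS and at -0.51 and -0.21 after heme-albumin.

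Other ligands of the TNF superfamily were measured beside Tnf. These and the lists that follow are read against 30.7%, 3.03% and 0.368% of all genes called either way after LPS, 200 µM and 50 µM. Called higher were 14%, 2.05% and 0.29% of all genes, and lower 16.7%, 0.98% and 0.0784%. Of 17 ligands listed, 16 were on the array and 11 were tested. After LPS 8 rose and none fell, 2 rose and 1 fell at 200 µM heme-albumin, and none was called at 50 µM. Lta, Cd70 and Tnfsf8, among the 8, passed the filter on dim probes only through the LPS arrays, where they were high. Tnfsf10 (TRAIL, a death ligand) rose by 5.85 ± 0.31 and Tnfsf15 (TL1A) by 5.03 ± 0.24 after LPS, and Ltb, which encodes lymphotoxin beta, by 1.44 ± 0.076. Lta, which encodes lymphotoxin alpha and neighbours Tnf in the genome, was not well above background on any untreated array and rose at least 17.3-fold after LPS. At 200 µM Tnfsf15 rose by 1.29 ± 0.24 and Tnfsf4 (OX40 ligand) by 1.58 ± 0.49, while Tnfsf8 (CD30 ligand) fell by 1.81 ± 0.39.

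These 3 calls at 200 µM were lost when the median spot signals were normalised anew by loess, either after normexp background correction or with no background subtraction, and that of Tnfsf15 with the red channel alone. Tnfsf8 was well above background on none of the 200 µM arrays and 3 of the untreated ones, which bounds its fall at 1.49-fold, and in 1 of 6 settings its sign turned (0.037). Tnfsf4 was well above background on 2 of the untreated arrays. The median of the 11 ligands was 2.93, 0.24 and -0.017 after LPS, 200 µM and 50 µM, or 2.37, 0 and -0.017 with dim genes at their bounds.

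Adam17, which releases TNF from the membrane, was modestly higher in all 3 treatments and passed the 2-fold rule in none. Its log2 ratio was 0.015, 0.20, 0.020 and 0.14 on the untreated arrays, 0.43, 0.26, 0.46 and 0.43 at 50 µM, 0.58, 0.68, 0.71 and 0.76 at 200 µM, and 1.06, 1.04, 0.95 and 0.88 after LPS. The groups did not overlap, although replicate b stood lowest at 50 µM. The change was 0.89 ± 0.064 after LPS (1.85-fold; limma adjusted p = 6.3e-09), 0.59 ± 0.064 at 200 µM (1.5-fold; limma adjusted p = 9.9e-06) and 0.30 ± 0.064 at 50 µM (1.23-fold; limma adjusted p = 0.015). The step from 50 µM to 200 µM was 0.29 ± 0.064 (limma adjusted p = 0.012). A second, dimmer Adam17 probe gave 0.87, 0.44 and 0.25 in the 3 comparisons, with limma adjusted p = 1.7e-07, 0.0015 and 0.16. In the red channel alone the change at 50 µM was 0.21, with limma adjusted p = 1.

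Other genes of TNF shedding were measured beside the sheddase. Of 9 genes of the shedding list tested, 4 rose and 2 fell after LPS, and none was called at either heme-albumin dose. Rhbdf2 (iRhom2, which carries ADAM17 to the cell surface) rose by 2.36 ± 0.15, from between -0.0082 and 0.31 on the untreated arrays to between 2.14 and 2.72. Rhbdf1 (iRhom1) fell by 1.26 ± 0.12, a call lost with either loess normalisation. Adam10, another sheddase, fell by 1.81 ± 0.12, with 3 LPS arrays in the fit. Sppl2a, an intramembrane protease that cuts the stub of TNF, rose by 1.84 ± 0.081. Frmd8, which stabilises the iRhoms, was 0.43 ± 0.057, Pacs2 0.17 ± 0.062 and Sppl2b -0.52 ± 0.074 after LPS, all under 2-fold (chosen after their values were seen). At 200 µM Rhbdf2 was 0.34 ± 0.15 higher (limma adjusted p = 0.13) and Adam10 0.40 ± 0.12 lower (limma adjusted p = 0.022), both under 2-fold. Timp3, an inhibitor of ADAM17, was on the array and too dim to test. The median of the 9 was 0.43, -0.11 and -0.021 in the 3 comparisons.

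The 2 receptors differed. Tnfrsf1b (TNFR2) had log2 ratios of -0.011, -0.026, -0.23 and -0.11 on the untreated arrays and 3.19, 2.88, 2.75 and 2.96 after LPS. It rose by 3.04 ± 0.11 (8.24-fold, 7.01 to 9.71; limma adjusted p = 2.6e-12). In the red channel alone the rise was 6.58-fold, below this interval. With heme-albumin the log2 ratio read 0.37, 0.10, 0.022 and 0.091 at 50 µM and 0.30, 0.076, -0.12 and -0.092 at 200 µM. The arrays at 200 µM overlapped the untreated ones, and those at 50 µM stood above them by a narrow gap. The changes were 0.14 ± 0.11 at 200 µM (interval -0.097 to 0.37; limma adjusted p = 0.42) and 0.24 ± 0.11 at 50 µM (interval 0.0073 to 0.48; limma adjusted p = 0.34). At 50 µM limma's adjusted p was 0.031 with the replicate letter, which is also the slide, as a block in the fit. The 2 doses differed by -0.10 ± 0.11 (interval -0.34 to 0.13; limma adjusted p = 0.70).

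Tnfrsf1a (TNFR1) had log2 ratios of 0.11, -0.12, -0.11 and 0.041 on the untreated arrays and 1.12, 1.06, 1.84 and 1.97 after LPS. It rose by 1.52 ± 0.17 (2.86-fold, 2.22 to 3.68; limma adjusted p = 1.0e-06). The LPS arrays fell into the scan days, with a change of 1.09 within the first and 1.94 within the second, and both were called. At 50 µM the ratios were 0.32, 0.32, 0.47 and 0.40, and at 200 µM 0.60, 0.59, 0.87 and 0.58, with replicate c apart from the rest. These changes were 0.39 ± 0.17 (limma adjusted p = 0.31) and 0.68 ± 0.17 (1.6-fold; limma adjusted p = 0.0097), the second under 2-fold. A second Tnfrsf1a probe, with 1 spot in place of 10, gave 1.12 after LPS, 0.36 at 200 µM and 0.13 at 50 µM (limma adjusted p = 2.9e-07, 0.036 and 0.73).

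Across the groups, the mean of Tnfrsf1a was highest after LPS, then at 200 µM, 50 µM and untreated, and between 200 µM and 50 µM the difference of 0.28 ± 0.17 did not pass (limma adjusted p = 0.41). Tnfrsf1b was highest after LPS, and none of its differences among the other 3 groups passed. Between LPS and 200 µM Tnfrsf1b was lower by 7.49-fold at 200 µM (limma adjusted p = 4.9e-12), and Tnfrsf1a by 1.79-fold (limma adjusted p = 0.00036), under the 2-fold rule. That Tnfrsf1a difference was past 2-fold with either loess normalisation (-1.02 and -1.0) and within the second scan day (-1.18). Tnfrsf1a was 2.18-fold lower at 50 µM than after LPS (limma adjusted p = 2.4e-05), a call lost within the first scan day (-0.77) and without LPS replicate d (-0.96). The second Tnfrsf1a probe gave -0.99 in this comparison, just under 2-fold (limma adjusted p = 1.1e-06).

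Of 16 other receptors of the superfamily tested, 4 rose and 2 fell after LPS. Cd40, the receptor of T cell help, rose by 4.65 ± 0.21, Fas, a death receptor, by 3.81 ± 0.14 and Tnfrsf9 (4-1BB) by 1.79 ± 0.070. Tnfrsf21 (death receptor 6) fell by 1.84 ± 0.094. Tnfrsf18 (GITR) fell at least 7.91-fold, since it was well above background on all untreated arrays and on no LPS array. Fas was the only receptor called at 200 µM, where it rose by 1.6 ± 0.14, and none was called at 50 µM. The median of the 16 was 0.10, 0.11 and 0.063 in the 3 comparisons.

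Components of the receptor complexes were measured in 29 genes, of which 11 rose after LPS and none fell, 2 rose at 200 µM and none was called at 50 µM. Tnfaip3 (A20, a brake on NF-kB) rose by 5.81 ± 0.24 after LPS and 1.76 ± 0.24 at 200 µM, and at 50 µM it was 0.98 ± 0.24 higher (limma adjusted p = 0.035), just under 2-fold. Traf1, an adaptor of TNFR2, rose by 4.92 ± 0.15 and 1.33 ± 0.15 after LPS and 200 µM. Cflar (c-FLIP, an inhibitor of caspase-8) rose by 3.94 ± 0.11, Birc3 (cIAP2, a ubiquitin ligase) by 2.45 ± 0.088 and Traf2, which recruits it, by 2.03 ± 0.072 after LPS. Birc3 was 0.79 ± 0.088 higher at 200 µM, under 2-fold (limma adjusted p = 1.3e-05). Of the proximal components of the TNFR1 complex, Ripk1 was at 0.022 ± 0.066 (limma adjusted p = 0.77) after LPS and Tradd, under 2-fold, at -0.27 ± 0.050 (limma adjusted p = 0.00019). The median of the 29 was 0.68, -0.014 and 0.014.

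Zfp36, the decay factor of the Tnf mRNA, rose after LPS and read lower, by less than 2-fold, after heme-albumin. Its log2 ratio was 0.038, 0.070, 0.011 and 0.072 on the untreated arrays, -0.18, -0.23, -0.11 and -0.14 at 50 µM, -0.45, -0.52, -0.43 and -0.46 at 200 µM, and 1.57, 1.62, 2.00 and 2.04 after LPS. Every heme-albumin array lay below every untreated array, and every LPS array above. The rise after LPS was 1.76 ± 0.089 (3.39-fold, 2.97 to 3.86; limma adjusted p = 1.2e-10), with 1.54 and 1.98 within the scan days. The red channel alone gave 6.58-fold, outside this interval. At 200 µM the change was -0.51 ± 0.089, a 1.43-fold lower level (1.25 to 1.63; limma adjusted p = 0.00073), which passed the p and not the 2-fold rule. At 50 µM it was -0.21 ± 0.089 (limma adjusted p = 0.30).

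The sign of Zfp36 at 200 µM held under all 21 alternatives, from -0.69 to -0.32. With normexp background correction and loess it was -0.32, and limma's adjusted p was then 0.11. Tnf and Zfp36 therefore had changes of 2.11 and -0.51 at 200 µM and of 4.16 and 1.76 after LPS, against the same untreated arrays. Directly compared, Zfp36 was 4.83-fold lower at 200 µM than after LPS (limma adjusted p = 7.4e-12). It was 3.92-fold lower at 50 µM than after LPS (limma adjusted p = 3.3e-11). These log2 differences of -2.27 and -1.97 were -3.41 and -3.01 in the red channel alone. The 2 heme-albumin doses differed by -0.30 ± 0.089 (limma adjusted p = 0.056, and 0.042 with the replicate block).

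Of 22 other genes of Tnf mRNA decay and translation tested, 2 rose and 3 fell after LPS, 1 rose and 1 fell at 200 µM, and none was called at 50 µM. The relatives of Zfp36 fell: Zfp36l1 by 1.99 ± 0.081 after LPS and by 1.33 ± 0.081 at 200 µM, and Zfp36l2 by 2.01 ± 0.14 after LPS. Zfp36l2 at 200 µM was -0.11 ± 0.14 (limma adjusted p = 0.62). Zc3h12a (regnase-1, an endonuclease that cuts cytokine mRNAs) rose by 3.74 ± 0.14 after LPS and 1.30 ± 0.14 at 200 µM, a call lost with either loess normalisation. Mapkapk2 (MK2, the kinase that inactivates tristetraprolin) rose by 2.27 ± 0.080 after LPS and was 0.52 ± 0.080 higher at 200 µM, under 2-fold (limma adjusted p = 0.00030). Elavl1 (HuR, which stabilises AU-rich mRNAs) was 0.072 ± 0.11 after LPS and -0.11 ± 0.11 at 200 µM (limma adjusted p = 0.56 and 0.54). The median of the 22 was -0.28, -0.055 and -0.011.

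Messenger RNAs known to be bound by tristetraprolin, Tnf left aside, were tested for 11 genes. Of these 10 rose after LPS and none fell, 5 rose and 1 fell at 200 µM, and none was called at 50 µM. Csf2, Il6 and Ptgs2, among the 10, passed the filter on dim probes only through the LPS arrays, where they were high. Il6 and Ptgs2 (COX-2) were not well above background on any untreated array and rose at least 1700-fold and at least 892-fold after LPS. At 200 µM, where 3 and 2 of the arrays measured them, the bounds were 2.43-fold and 1.10-fold. The chemokines Cxcl1 and Cxcl2 rose by 2.72 ± 0.45 and 2.43 ± 0.63 at 200 µM, with 1 and 2 of the untreated arrays well above background. Ccl2, a monocyte chemokine, fell by 1.58 ± 0.42 at 200 µM and rose by 4.56 ± 0.46 after LPS, with 3 LPS arrays in the fit. With normexp and loess 1 of the 11 was called at 200 µM, and with no background subtraction 3. The 1 call with normexp and loess was the fall of Ccl2, and none of the rises was called. Cxcl1 was then 0.25 and Cxcl2 0.32. With the replicate block Cxcl1 and Cxcl2 were also called at 50 µM. The median was 4.56, 0.55 and 0.26, or 4.56, 0.39 and 0 with dim genes at their bounds.

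Genes with Tnfaip in their name, Tnfaip8-like genes among them, and Litaf were tested in 8 cases. After LPS 3 rose and 1 fell, and at 200 µM 1 rose, Tnfaip3 (also counted with the receptor complexes). Tnfaip2 rose by 1.68 ± 0.10 after LPS and was 0.76 ± 0.10 higher at 200 µM (limma adjusted p = 6.0e-05), under 2-fold. Tnfaip8l3 was too dim on the untreated arrays and rose at least 3.77-fold, a call lost with normexp and loess. It passed the filter on dim probes only through the LPS arrays. Tnfaip8l1 fell by 1.87 ± 0.14. Litaf was 0.84 ± 0.080 higher after LPS (limma adjusted p = 1.6e-07), under 2-fold. The median of the 8 was 0.72, -0.0077 and 0.033, or 0.72, -0.035 and -0.0043 with dim genes at their bounds.

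**Figure D4:**
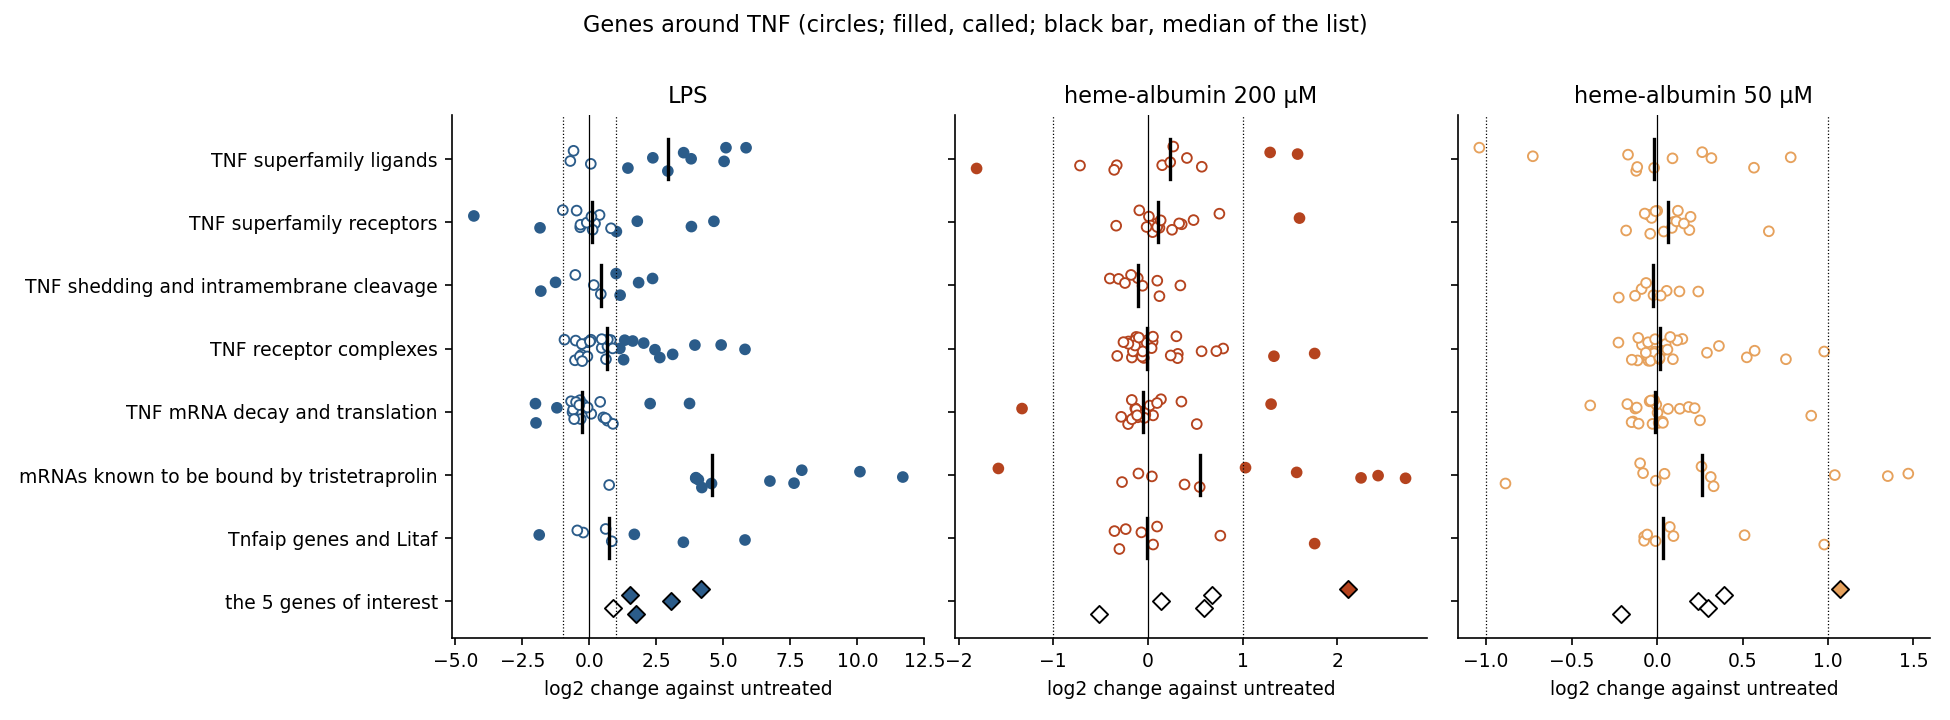
Log2 change against the untreated arrays (x axis, own scale in each panel) of each tested gene in 7 lists around TNF (circles) and of the 5 genes (diamonds); filled symbols were called and black bars are list medians. The list of tristetraprolin-bound mRNAs has the medians 4.56, 0.55 and 0.26 after LPS, 200 µM and 50 µM, and no list gene is filled at 50 µM.

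The genes most like each member were found by the root mean square difference of their log2 ratios over the 16 arrays, each less its mean on the untreated arrays. Nearest to Tnf was Sod2, the mitochondrial superoxide dismutase, at 0.32, with changes of 4.36, 1.83 and 0.62 after LPS, 200 µM and 50 µM. Ralgds (0.37), Clec4e (0.40), Procr (0.44) and Tma16 (0.44) followed. These distances use the log2 ratio, in which Tnf rose by 4.16 after LPS. The red channel alone gave 6.94, and neighbours on that scale were not sought. Nearest to Tnfrsf1a were Kpna4 (0.14), Znrf1 (0.16) and Pkp4 (0.17), and nearest to Tnfrsf1b were Ms4a6d (0.12) and Lcn2 (0.19). Adam17 had Rassf4 (0.090), Psmd11 (0.099) and Psmb5 (0.10), the last 2 of which encode proteasome subunits. Zfp36 had Tor1aip1 (0.087), Cnp (0.093) and Sp100 (0.13), which had changes of -0.48, -0.51 and -0.47 at 200 µM.

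The direction of Tnf was the same in all 6 comparisons under all 21 alternatives run for each. After LPS it lay between 4.12 and 6.94, the upper end from the red channel alone. At 200 µM it lay between 1.22, with normexp and loess, and 2.40. At 50 µM it lay between 0.76 and 1.27, with limma adjusted p at most 0.032, so that its size fell on both sides of 2-fold. Between the doses it was 0.46 with normexp and loess (limma adjusted p = 0.30).

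**Figure D5:**
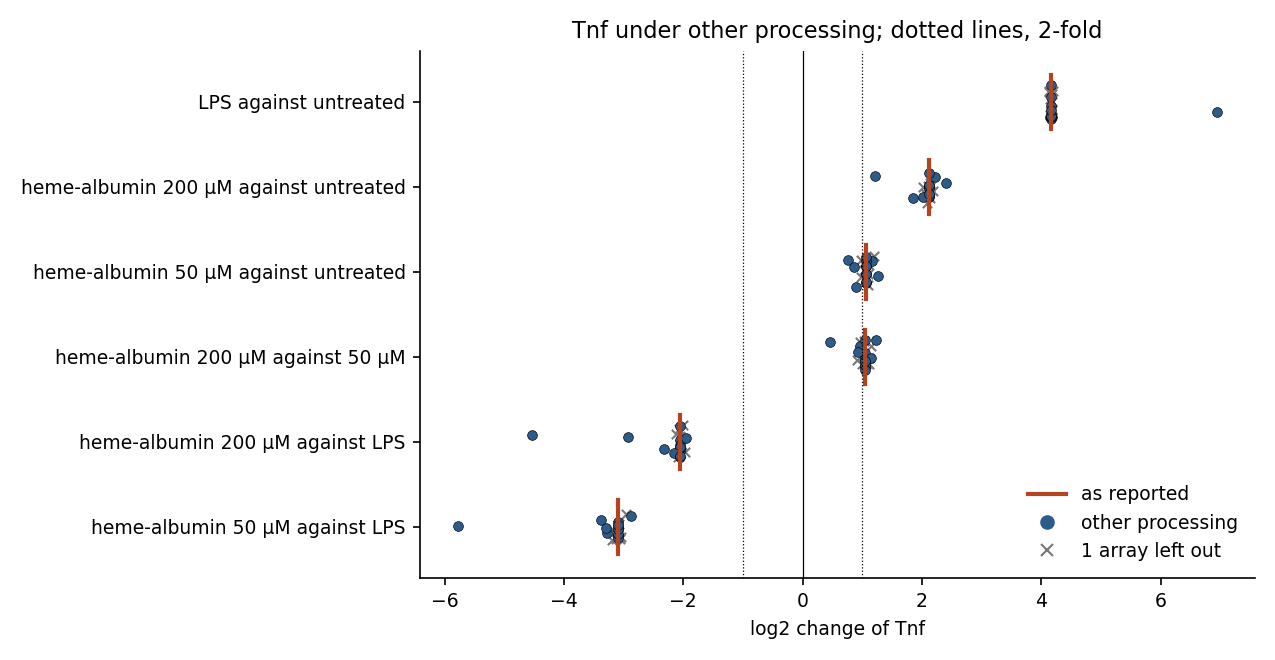
Log2 change of Tnf (x axis) in the 6 comparisons as reported (bars), under other processing (circles) and with 1 array left out (crosses). After LPS the red channel alone lies apart at 6.94, and 50 µM against untreated and 200 µM against 50 µM lie on both sides of the dotted 2-fold line.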

How the data were processed

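RNA of 16 samples, 4 in each of 4 groups, was measured on two-colour arrays with a common untreated reference. Each deposited file gives, per spot, a log10 ratio (red to green) and an intensity in both channels, per the file headers. Background subtraction and linear and lowess dye normalisation came from Agilent Feature Extraction (version 10.7.3.1), per the file headers and the labels. The authors entered the log10 ratios into an analysis of variance and filtered at 2-fold, per the labels. On each array the log10 ratios have a median of 0.

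Spots of a probe were averaged, leaving out control and outlier spots, and log10 ratios were turned into log2. A probe entered the fit (21458 did) if every array of some group had it above background in red, and the brightest such probe represented its gene. Probe accessions were matched to RefSeq genes (GRCm38.p6). The array design uses mm9, so no probe coordinates are given. Of 39429 probes, 27234 matched 1 symbol and 12195 had no match. limma 3.58.1 in R 4.3.3 (lmFit, eBayes) fitted a mean per group over all 16 arrays with no block, and p-values were adjusted over 12759 genes. The script was first tested on simulated data. Figures and joins used Python 3.11.15 with pandas 2.3.3, numpy 2.4.6 and matplotlib 3.10.9. The precision is limited by the 4 arrays a group.

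Bounds for genes too dim in a whole group come from the red channel after Aquantile normalisation. On the dim side an array's value was raised to that of its faintest probe above background where it lay below it. Without dye swaps these bounds are open to dye bias.

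The replicate letter is also the slide, and in the titles each letter goes with the same further tag in all 4 groups, whose meaning the labels do not give. Deviations of same-lettered arrays from their group means correlated over genes at 0.161 to 0.502 in 4 comparisons. The correlations were 0.0962 to 0.114 for LPS against untreated and 0.100 to 0.232 for 200 µM against LPS. They cannot show pairing of the samples, since the letter is also the slide and differently lettered arrays were not compared in this way. The fit with the letter as a block is therefore an alternative to the design without it. Alternatives were normexp (offset 50) or no background subtraction, each with loess; the red channel alone; median centring; 2 other filters; the mean of all probes; the replicate or the scan day as a block; each scan day; 2 groups alone; no eBayes; and leaving out each array. The normexp and loess fits used median signals, since mean signals are not in the files used here.

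Named genes were the 5 members, a fixed set of pathway genes, the 3 largest called rises and 2 largest called falls of each list against untreated, and the nearest genes (5 for Tnf, 3 for the others, of which 1 is not reported here). The members and lists were chosen with earlier results of these data known.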

Additional observations from a re-analysis of the deposited data

Results flagged for a closer look

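The green channel is labelled as untreated reference RNA and enters the main fit only through the ratio. Set against each array's 75th percentile, it was 2.78 higher (log2) for Tnf and 0.957 higher for Zfp36 on the LPS arrays than on the untreated arrays, with no overlap between these groups. The part of either in the ratios was not tested.

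In 4 of 28 groups of 4 arrays, 1 array stood apart from the rest by Dixon's test, where chance gives about 1 in 20. These were Tnfrsf1a at 200 µM heme-albumin, where replicate c was highest at 0.866, and Adam17 at 50 µM, where replicate b was lowest at 0.263. The second probes of these genes added Tnfrsf1a at 50 µM, where replicate a was lowest at -0.0268, and Adam17 after LPS, where replicate d was lowest at 0.845.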

How the results depend on the processing

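Every change of the 5 genes kept its sign in the 6 comparisons under the 21 alternatives run for each. Of the changes and counts for Tnf, the 5 genes together and the lists, 156 values under other processing kept their side of the threshold or stayed within 1.5 times, while 6 lost the call and 9 counts moved further. With 1 array left out 86 kept it, 5 lost the call and 5 counts moved.

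Calls near 2-fold were lost under some settings. Tnf at 50 µM against untreated was 0.762 with normexp and loess, 0.889 with no background subtraction and 0.862 within the first scan day, and 0 of the 5 genes were then called. Tnf at 200 µM against 50 µM was 0.46, 0.959 and, within the second scan day, 0.935, again with 0 of the 5 called. With 1 array left out Tnf lay between 0.971 and 1.20 in the first comparison and between 0.91 and 1.14 in the second, with 0 to 1 of the 5 called in each. Over the 7 lists, 14 genes were called at 200 µM, and 5 with normexp and loess and 7 with no background subtraction. At 50 µM 0 list genes were called (limma), and 2 with the replicate block, which moved no other count of calls by over 1.5 times and ended no call of the 5 genes. The cause was not tested. Median centring changed nothing, since every array's median is 0. Over all genes, 386 were called at 200 µM, 47 at 50 µM and 106 between the doses. These counts were 151, 19 and 31 with normexp and loess, and 228, 28 and 70 with no background subtraction. At 50 µM 78.7% of the called genes were higher, and 89.5% with the red channel alone.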
